A study of Mus musculus with 12 samples.

Results

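The 7 genes described here, Otx2, Fgf5, Pou3f1, Zic2, Zic5, Grhl2 and Lin28b, mark formative and primed pluripotency in the mouse epiblast. They were taken by symbol from the 55401 genes of the count files, each symbol matched 1 gene, and all 7 passed the filter on low counts, so that they are 7 of the 17468 genes tested. Naive pluripotency is the state of the epiblast before implantation. After implantation the epiblast passes through a formative state, in which cells become able to respond to signals for the germ layers and the germline, and then a primed state that precedes gastrulation. OTX2 and POU3F1 are transcription factors that act with OCT4 at the enhancers switched on during that passage, ZIC2 and ZIC5 are zinc finger factors, GRHL2 is a factor of epithelial genes, FGF5 is a secreted growth factor and LIN28B is an RNA-binding protein that blocks the maturation of let-7 microRNAs.

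RNA was sequenced from mouse totipotent potential stem (TPS) cells and from mouse extended pluripotent stem (EPS) cells, with 3 lines of each cell type and 2 technical replicates of each line. TPS cells were kept on feeder cells in a medium named VCED in the labels. For TPS cells the study's methods describe CPEC medium, which contains the histone deacetylase inhibitor VPA, the GSK3 inhibitor CHIR-99021, the DOT1L inhibitor EPZ004777 and the RARγ agonist CD1530. EPS cells were also kept on feeder cells, in LCDM medium, and the feeders described for TPS cells are inactivated mouse embryonic fibroblasts. The study makes TPS cells from EPS cells, embryonic stem cells or embryos, and the origin of the 3 TPS lines, the strain and the basal medium used for these samples are not given in the sources used here. Nothing says that the lines of a cell type came from separate animals, so p-values measure the spread between these lines only.

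The 12 libraries held between 13676051 and 21821707 counts on genes. The labels of the libraries went with the markers of the cell types. Of 5 totipotency markers, 5 were higher in TPS lines, with a summed level of 110 to 150 CPM (counts scaled to the library total and corrected for its composition by the TMM factor) against 0.0589 to 0.0854 CPM in EPS lines, where Zfp352 and Tcstv3 were at 0. All 5 passed the filter on low counts through their TPS lines alone, with at most 3 counts in any EPS library. The study itself names Zscan4, Zfp352, Tcstv1 and Tcstv3 as totipotency markers expressed in TPS cells, so this was no independent check. Of all genes tested, 14.4% were called higher in TPS lines. The core pluripotency markers Pou5f1, Sox2 and Sall4 were present in every line, and 1 of the 3, Pou5f1, was lower in TPS lines. Sox2 had every TPS line below every EPS line, with a log2 fold change of -0.51 and an adjusted p of 0.0507 in edgeR. Sall4 overlapped, with 0.03 and 0.926. Of 14 fibroblast markers, 9 were higher and none was lower in TPS lines, where 14.4% and 7.34% of all genes were. Their summed level was 3345 to 5927 CPM in TPS lines, while EPS lines had 314 to 1319 CPM. The number called was 3 without TPS line 1 or EPS line 2 and 5 without TPS line 3. None of these 14 markers was at 0 in all lines of a cell type. In such bulk samples fewer cells of a type and less RNA per cell cannot be told apart.

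The 7 genes did not move together between the cell types. Pou3f1 and Fgf5 were higher in TPS lines, by 3.72-fold and 4.30-fold, and Lin28b was higher in EPS lines, by 1.68-fold. Fgf5 passed the filter on low counts through its TPS lines alone, with 2, 6 and 8 counts in EPS lines 1, 2 and 3. Otx2, Zic2, Zic5 and Grhl2 did not pass the test, with adjusted p from 0.295 to 0.974 (edgeR's quasi-likelihood test, Benjamini-Hochberg over all genes tested, threshold 0.05). Of all genes tested, 14.4% were called higher in TPS lines and 7.34% lower, which made 21.7% called in either direction. Against this, 2 of the 7 genes were called higher and 1 lower. The 7 log2 fold changes had a median of 0.09, and those of all genes tested -0.00.

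**Figure D1:**
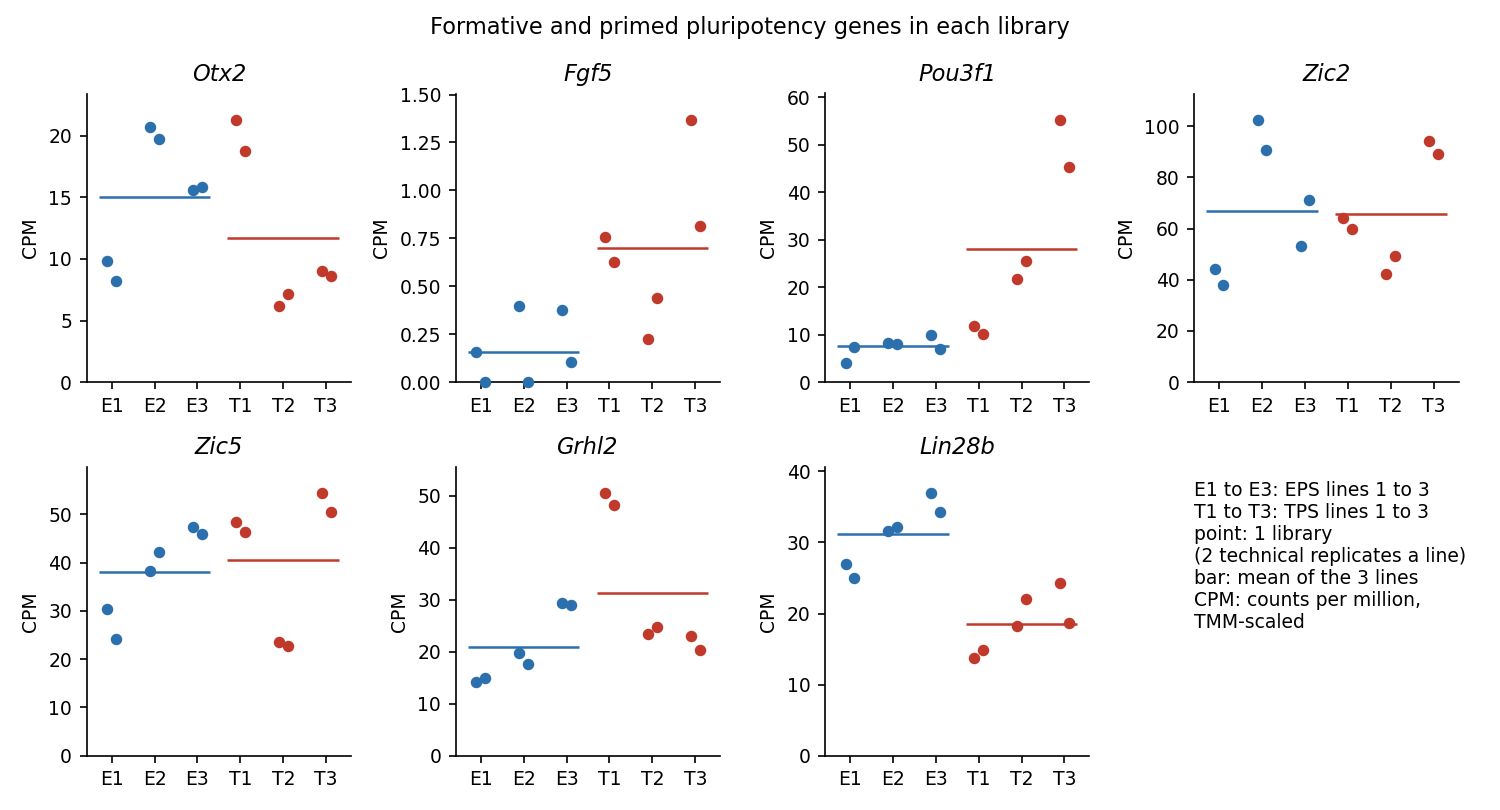
Level of each of the 7 genes (CPM, linear axis from 0) in each of the 12 libraries, with EPS lines 1 to 3 in blue and TPS lines 1 to 3 in red. Each point is 1 technical replicate and the bar is the mean of the 3 lines. Pou3f1 and Lin28b have no overlap between the cell types, Fgf5 overlaps in single libraries, and the other 4 genes overlap widely.

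The 7 genes were expressed at very different levels. Levels of different genes were compared as TPM, which divides counts by the exon length of the gene and scales each line to the same total. In TPS lines Zic2 was the highest, at 64.3 ± 22.5 TPM (SD, n = 3), and its lines did not overlap with those of the next gene, Zic5, at 23.3 ± 8.78 TPM. Pou3f1 (20.6 ± 14.6 TPM), Grhl2 (10.2 ± 4.75 TPM), Otx2 (7.75 ± 4.52 TPM) and Lin28b (5.77 ± 1.24 TPM) followed, and each of these overlapped with the gene before it in the order. Fgf5 was the lowest, at 0.783 ± 0.417 TPM, and stood clear of all others.

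The order in EPS lines had the same ends and a different middle. Zic2 was again the highest, at 58.3 ± 27.5 TPM, clear of Zic5 at 19.5 ± 6.73 TPM. The middle group was Otx2 (8.95 ± 3.92 TPM), Lin28b (8.57 ± 2.06 TPM), Grhl2 (6.09 ± 2.63 TPM) and Pou3f1 (4.88 ± 1.21 TPM), in which each gene overlapped with its neighbour, as Zic5 did with Otx2. Fgf5 was clear of the others at 0.159 ± 0.0931 TPM. Pou3f1 thus came next after Zic5 in TPS lines and next above Fgf5 in EPS lines.

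Lines of 1 cell type differed among themselves as well. EPS line 1 was the lowest of the EPS lines for 7 of the 7 genes, while it was the lowest for 34.8% of all genes tested. TPS line 3 was the highest of the TPS lines for 5 of the 7 genes, against 28.6% of all genes tested, and the exceptions were Otx2 and Grhl2, which were highest in TPS line 1. EPS line 1 also had the lowest summed level of fibroblast markers, 314 CPM, where lines 2 and 3 had 1246 and 1319 CPM. The part of that difference in the levels of the 7 genes was not tested.

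Among the transcription factors, Pou3f1 was the gene that rose. Pou3f1 (ENSMUSG00000090125.3, chr4:124656807-124660655 on the plus strand, GRCm38) encodes POU3F1, also called OCT6, a POU factor of the epiblast, the nervous system and Schwann cells. It had 10.8, 23.5 and 49.9 CPM in TPS lines 1, 2 and 3 and 6.10, 8.18 and 8.31 CPM in EPS lines 1, 2 and 3. Every TPS line was above every EPS line, and the spread was much wider in TPS lines, where the highest line was 4.64 times the lowest. In the single libraries the lowest TPS value was 10.1 CPM and the highest EPS value was 9.99 CPM, so the groups met without overlapping. The means were 28.1 ± 20.0 CPM in TPS lines and 7.53 ± 1.24 CPM in EPS lines (SD, n = 3). The log2 fold change was 1.89 (SE 0.504, 95% interval 0.72 to 3.07), with an adjusted p of 0.0346 in edgeR.

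The size of the Pou3f1 difference rested on TPS line 3. Without that line the log2 fold change was 1.18 with an adjusted p of 0.0894, and without TPS line 1 it was 2.28 with an adjusted p of 0.0111 (both edgeR). The call was also lost when TPS line 2 or any of the EPS lines was left out, with adjusted p between 0.0537 and 0.106, and in limma-voom, with an adjusted p of 0.0990. The technical replicates of EPS line 1 had 4.06 and 7.45 CPM, from 51 and 136 counts.

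Markers of other cell types were set beside Pou3f1. Among TPS lines, line 1 had the highest fibroblast sum, 5927 CPM, and the lowest Pou3f1. In EPS lines Pou3f1 and the fibroblast sum had the same order, and both were higher in every TPS line than in any EPS line. Neural progenitor markers summed to 72.9 to 93.0 CPM in TPS lines and 43.9 to 68.8 CPM in EPS lines, and 2 of the 6 tested, Pax3 and Tubb3, were higher in TPS lines. Beside this and the marker counts that follow, 14.4% of all genes tested were called higher and 7.34% lower. Pax3 passed the filter on low counts through its TPS lines alone, with at most 0.147 CPM in EPS lines. The 6 tested log2 fold changes had a median of 1.03, with 4 above 0 and 2 below. Nes and Pax6 had every TPS line above every EPS line (adjusted p of 0.0977 and 0.172, edgeR), while Map2 had every TPS line below every EPS line (adjusted p of 0.0508) and Sox1 had the lower mean in TPS lines (adjusted p of 0.264). Neural crest markers summed to 32.4 to 46.1 CPM in TPS lines and 37.8 to 43.6 CPM in EPS lines, with 1 of 5 higher and 1 lower. Their log2 fold changes had a median of 1.48, with 4 above 0 and 1 below. The 1 called lower, Foxd3, was at 5.21 to 16.4 CPM in TPS lines and 24.9 to 36.2 CPM in EPS lines. For trophectoderm markers the sums were 144 to 589 CPM against 102 to 178 CPM, with 2 of 6 tested higher, Cdx2 and Gata3. The lowest EPS line of each was at 0 CPM, so both passed the filter on low counts only with their TPS lines. The sum of 589 CPM was that of TPS line 2. Krt8 spanned 4.85 to 243 CPM and Krt18 8.77 to 198 CPM over TPS lines. Neither was called (adjusted p of 0.124 and 0.0550, edgeR). For primitive endoderm markers the sums were 86.2 to 93.6 CPM against 130 to 192 CPM, with 3 of 7 higher and 1 lower. Median log2 fold changes were 3.15 for trophectoderm markers (5 above 0 and 1 below) and 1.86 for primitive endoderm markers (5 above 0 and 2 below). The endoderm gene called lower, Lama1, was at 30.1 to 50.6 CPM in TPS lines and 107 to 176 CPM in EPS lines. The part of the fibroblast, neural, trophectoderm and endoderm markers in the Pou3f1 difference was not tested.

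**Figure D2:**
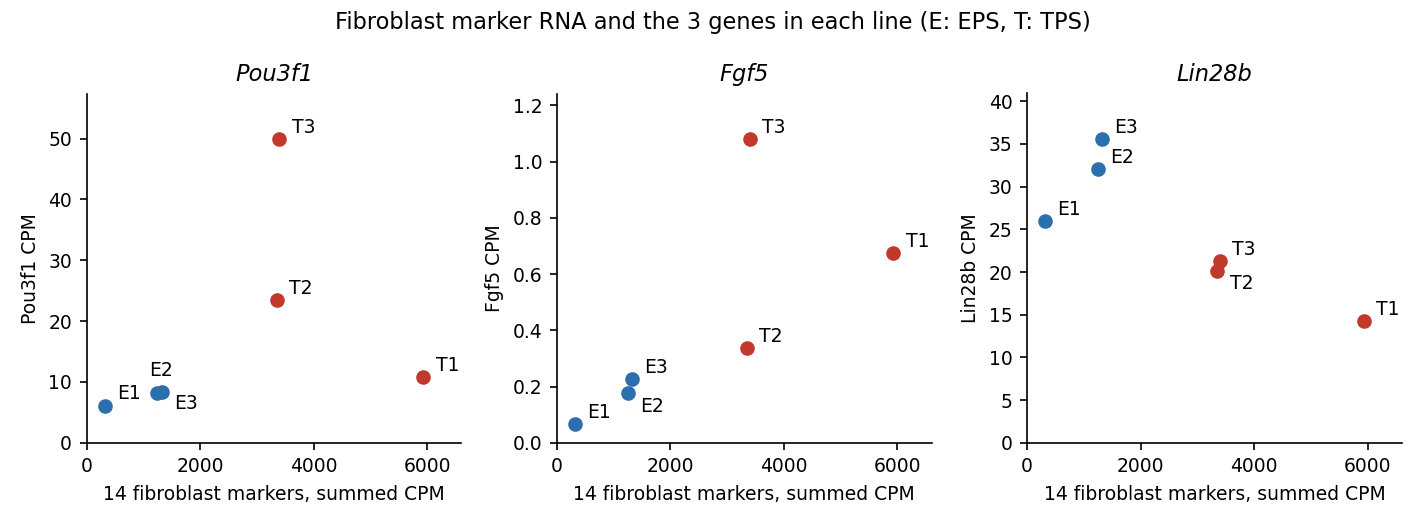
Level of Pou3f1, Fgf5 and Lin28b in each line (vertical axes, CPM) against the summed level of 14 fibroblast markers in the same line (horizontal axes, CPM), with EPS lines in blue and TPS lines in red. The fibroblast sum runs from 314 CPM in EPS line 1 to 5927 CPM in TPS line 1. Within TPS lines Pou3f1 is lowest where the sum is highest, and within EPS lines all 3 genes are lowest where the sum is lowest.

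The other class III POU genes were set beside Pou3f1, since they share its DNA-binding domain. Pou3f3 was at 0.999 to 1.58 CPM in TPS lines and 0.0653 to 0.589 CPM in EPS lines, so the lines did not overlap, with a log2 fold change of 1.93 (SE 0.65) and an adjusted p of 0.0706 in edgeR, 0.0250 in DESeq2 and 0.0429 in edgeR without a filter on low counts. Pou3f4 was at 0.318 to 0.466 CPM in TPS lines and 0.0326 to 0.412 CPM in EPS lines, with an adjusted p of 0.385 in edgeR. Pou3f2 did not pass the filter on low counts, at 0.0953 to 0.700 CPM in TPS lines and at most 0.0294 CPM in EPS lines. In the reported fit, Pou3f1 was the gene of this family that passed the test.

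Otx2 did not differ beyond the spread between lines. Otx2 (ENSMUSG00000021848.16, chr14:48657677-48673819 on the minus strand) encodes a homeodomain factor that drives exit from the naive state and later patterns the forebrain. It had 19.6, 6.66 and 8.74 CPM in TPS lines 1, 2 and 3 and 8.94, 20.3 and 15.8 CPM in EPS lines 1, 2 and 3. The groups overlapped almost fully, with 1 high line in TPS cells and 1 low line in EPS cells. The log2 fold change was -0.36 (SE 0.458) with an adjusted p of 0.609 in edgeR, and its 95% interval of -1.42 to 0.70 includes changes in either direction. Without TPS line 1 the log2 fold change was -0.96 (unadjusted p of 0.0403, adjusted p of 0.146), and without TPS line 2 it was -0.09. Technical replicates of a line differed by at most 0.24 on the log2(CPM + 1) scale, while TPS lines spanned 1.43 on that scale, so the spread lay between lines. Its relative Otx1 was scarce, at 0.400 to 1.45 CPM in TPS lines and 0.412 to 0.911 CPM in EPS lines, with an adjusted p of 0.639 in edgeR. The antisense RNA Otx2os1 shares 154 exon bases with Otx2 and had at most 10 counts in any library.

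Zic2 and Zic5 had nearly equal means in the TPS and EPS lines. The genes lie next to each other on chromosome 14, on opposite strands with 9757 bases between them. Zic2 (ENSMUSG00000061524.8, chr14:122475435-122479852 on the plus strand) encodes a factor that binds enhancers in pluripotent cells and is needed for forebrain development, and Zic5 (ENSMUSG00000041703.7, chr14:122456795-122465677 on the minus strand) encodes a relative with a role in neural crest. Zic2 had 60.9, 45.7 and 91.2 CPM in TPS lines 1, 2 and 3 and 40.7, 96.5 and 63.2 CPM in EPS lines 1, 2 and 3. Zic5 had 46.7, 22.9 and 52.0 CPM in those TPS lines and 26.8, 40.7 and 46.7 CPM in those EPS lines. Among TPS lines both genes were lowest in line 2 and highest in line 3. Among EPS lines both were lowest in line 1, while Zic2 was highest in line 2 and Zic5 in line 3.

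For Zic2 the log2 fold change was -0.02 (SE 0.350, 95% interval -0.83 to 0.79), with an adjusted p of 0.974 in edgeR. For Zic5 it was 0.09 (SE 0.330, 95% interval -0.68 to 0.86), with an adjusted p of 0.870. The sign of both values changed under other ways of fitting. A 2-fold change in either direction lies outside both intervals. Among their relatives, Zic1 had 2.28 to 3.62 CPM in TPS lines and 0.326 to 1.47 CPM in EPS lines, with a log2 fold change of 1.51 and an adjusted p of 0.0910. The TPS lines of Zic1 were all above its EPS lines. It did not pass the test in the reported fit but did in DESeq2 (adjusted p of 0.0269). It also did in edgeR on the 12 libraries (0.00515), a fit that counts technical replicates of a line as independent samples. Zic4 did not pass the filter on low counts, at no more than 0.375 CPM in any line.

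Grhl2 had a higher mean in TPS lines that did not pass the test. Grhl2 (ENSMUSG00000022286.16, chr15:37233036-37363569 on the plus strand) encodes a grainyhead-like factor that opens enhancers of epithelial genes as naive cells become formative. It had 48.6, 23.9 and 21.4 CPM in TPS lines 1, 2 and 3 and 14.7, 18.7 and 29.2 CPM in EPS lines 1, 2 and 3. TPS line 1 stood above all other lines, and EPS line 3 lay above TPS lines 2 and 3. The log2 fold change was 0.59 (SE 0.374, 95% interval -0.28 to 1.45), with an adjusted p of 0.295 in edgeR. Without TPS line 1 the log2 fold change was 0.12. Grhl1 was at 5.86 to 7.27 CPM in TPS lines and 8.09 to 8.91 CPM in EPS lines, with an adjusted p of 0.228, and Grhl3 at 10.7 to 29.5 CPM against 14.8 to 31.8 CPM, with an adjusted p of 0.648. Both had means below those of EPS lines, on the other side from Grhl2, and neither passed the test in the reported fit. The lines of Grhl1 did not overlap, and it was called in edgeR on the 12 libraries as separate samples (adjusted p of 0.0384). That fit counts technical replicates of a line as independent.

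The epithelial genes that GRHL2 is known to act on lay on the other side from the mean of Grhl2, whose own difference did not pass the test. In TPS lines 0 of 10 such genes were higher and 6 were lower, where 14.4% and 7.34% of all genes were. Their log2 fold changes had a median of -0.96. The claudins Cldn4 and Cldn7, which form tight junctions, fell by 2.16 and 2.13 on the log2 scale (adjusted p of 0.00941 and 0.0133, edgeR). Cldn4 was at 52.9 to 132 CPM in TPS lines and 254 to 438 CPM in EPS lines. Spint1, an inhibitor of membrane proteases, fell by 1.30 and its target protease St14 by 1.27 (adjusted p of 0.0141 and 0.0267). The remaining called genes were Epcam and Rab25, and the E-cadherin gene Cdh1 had a log2 fold change of -0.61 with an adjusted p of 0.0748. All 10 genes had a value below 0, and without 1 line between 2 and 5 of them were called lower. The fibroblast sum went the other way, higher in every TPS line, and its part in the epithelial values was not tested.

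Fgf5, the ligand among the 7 genes, was higher in TPS lines but scarce in both cell types. Fgf5 (ENSMUSG00000029337.2, chr5:98254184-98277030 on the plus strand) encodes a secreted fibroblast growth factor that is a classical marker of the epiblast after implantation. It had 0.675, 0.337 and 1.08 CPM in TPS lines 1, 2 and 3 and 0.0653, 0.177 and 0.228 CPM in EPS lines 1, 2 and 3. No TPS line overlapped with an EPS line. In single libraries the counts were 13, 14, 4, 9, 21 and 13 in TPS cells and 2, 0, 6, 0, 6 and 2 in EPS cells, and these did overlap.

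The log2 fold change of Fgf5 was 2.11 (SE 0.629, 95% interval 0.64 to 3.57), with an adjusted p of 0.0495 in edgeR, just under the threshold. Only its TPS lines met the filter's minimum of 10 counts, with 27, 13 and 34 counts against 2, 6 and 8 in EPS lines. Fitted without that filter, its adjusted p was 0.0477 in edgeR. Summed over libraries there were 74 counts in TPS cells and 16 in EPS cells, a ratio of 4.63 with an exact counting interval of 2.67 to 8.52, which covers counting error only and not the spread between lines. The call was lost with RLE factors (adjusted p of 0.0503), with limma-voom (0.0709), with the line number as a block (0.0866) and whenever a line other than TPS line 2 was left out (0.0780 to 0.158). Fgf5 was highest in TPS line 3 and lowest of the TPS lines in line 2, while the fibroblast sum was highest in TPS line 1. In EPS lines Fgf5 and the fibroblast sum had the same order. The part of fibroblast RNA in the Fgf5 difference was not tested.

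Genes of the FGF receptors were measured beside the ligand. Of 4 receptor genes, 2 were higher in TPS lines and none lower, where 14.4% and 7.34% of all genes were. Fgfr1, the main FGF receptor of the epiblast, was at 158 to 199 CPM in TPS lines and 66.3 to 88.2 CPM in EPS lines, with a log2 fold change of 1.21 (SE 0.16) and an adjusted p of 0.00409 in edgeR. Fgfr2, known from primitive endoderm and trophectoderm, was at 8.71 to 14.2 CPM against 0.751 to 3.03 CPM, with a log2 fold change of 2.73 (SE 0.54) and an adjusted p of 0.0128. These calls held in each of the 17 alternative fits. The fibroblast sum was also higher in every TPS line than in any EPS line, and its part in the receptor values was not tested. Fgfr3 and Fgfr4 had adjusted p of 0.526 and 1.00.

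**Figure D3:**
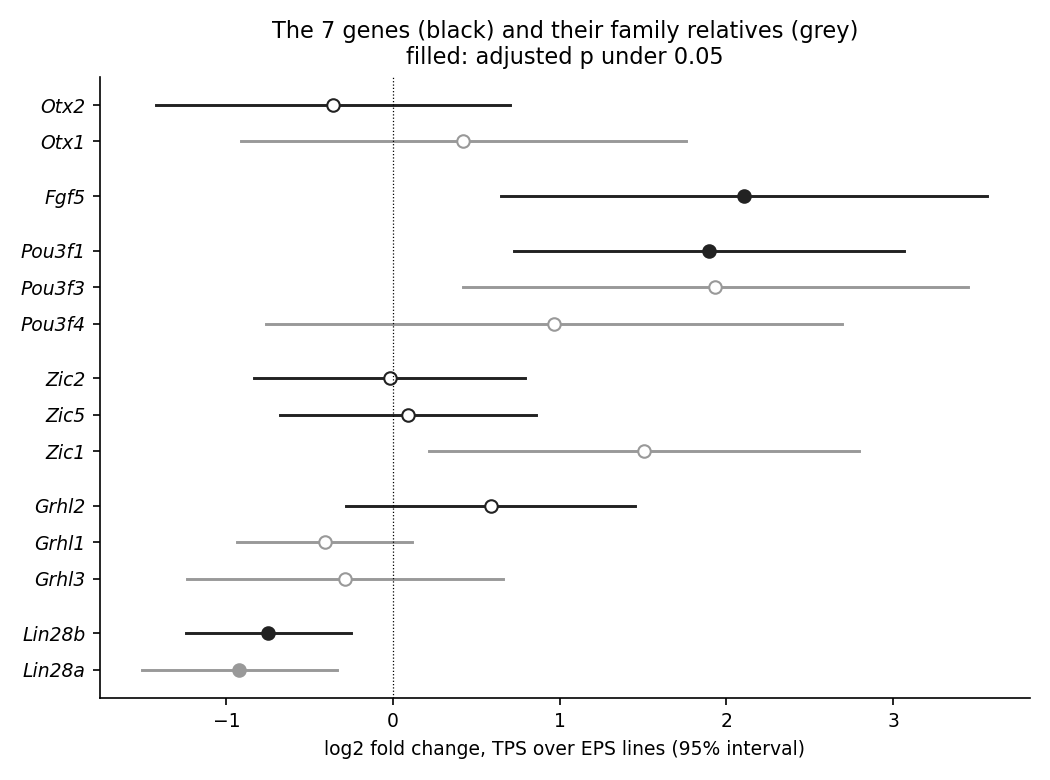
Log2 fold change of TPS over EPS lines with its 95% interval (edgeR, 3 lines against 3) for the 7 genes in black and for 7 tested relatives in grey. Filled points have an adjusted p under 0.05. Pou3f1 and Fgf5 lie above 0, Lin28b and its relative Lin28a below 0, and the intervals of the remaining genes in black include 0.

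Lin28b was the gene of the 7 that fell. Lin28b (ENSMUSG00000063804.8, chr10:45376620-45486395 on the minus strand) encodes a protein that binds the precursors of let-7 microRNAs and keeps them from maturing, and let-7 in turn represses Lin28b RNA. It had 14.2, 20.2 and 21.3 CPM in TPS lines 1, 2 and 3 and 26.0, 32.1 and 35.6 CPM in EPS lines 1, 2 and 3. Every TPS line was below every EPS line, and so was every library, with a highest TPS value of 24.2 CPM and a lowest EPS value of 25.0 CPM. The means were 18.6 ± 3.81 CPM in TPS lines and 31.2 ± 4.87 CPM in EPS lines (SD, n = 3). The log2 fold change was -0.75 (SE 0.213, 95% interval -1.24 to -0.25), with an adjusted p of 0.0424 in edgeR. Of all genes tested, 19.1% had every TPS line below every EPS line and 23.6% had every TPS line above, so that the lines of 42.7% did not overlap, as did those of 3 of the 7 genes.

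The Lin28b call depended on the scaling of the libraries. Without composition factors, that is with the library total alone, the log2 fold change was -0.61 with an adjusted p of 0.0991, and with upper quartile factors it was -0.70 with an adjusted p of 0.0619 (both edgeR). The call held with RLE factors (adjusted p of 0.0440). On the TPM scale, which also uses the total alone, the highest TPS line (6.63 TPM) was just above the lowest EPS line (6.30 TPM). Left-out lines gave adjusted p between 0.0468 and 0.111, and the call held without EPS line 1. Lin28b was lowest in TPS line 1, the line with the highest fibroblast sum, while among EPS lines it was lowest in line 1, where that sum was lowest, and highest in line 3, where it was highest. The part of fibroblast RNA in the Lin28b difference was not tested.

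The relative Lin28a moved the same way. Lin28a encodes the LIN28 protein that acts on let-7 in the cytoplasm of embryonic stem cells. It had 177 to 271 CPM in TPS lines and 326 to 572 CPM in EPS lines, without overlap. Its log2 fold change was -0.92 (SE 0.25) with an adjusted p of 0.0372 in edgeR. Among the 7 tested relatives described here it was the 1 called in the reported fit. Relatives called higher in TPS lines, 0 in that fit, were 3 in DESeq2 and 2 in edgeR without the filter or on the 12 libraries as separate samples, Pou3f3 among them each time. The call of Lin28a was lost in 2 of the 11 alternatives that keep all lines, and in 5 of the 6 fits with a line left out, the exception being the fit without EPS line 2.

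The letters that let-7 could pair with in Lin28b can be read from the sequences. A microRNA finds its targets mainly through its seed, bases 2 to 8, which pairs with the complementary letters in the 3′ UTR of a messenger RNA. The 9 mature let-7 family sequences in RefSeq (GRCm38.p6) share 1 seed, GAGGUAG, which is in capitals in these 4 examples, shown because their seed is the complement of the letters searched in Lin28b, as it is in the other 5:
mmu-let-7a-5p: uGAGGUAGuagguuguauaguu
mmu-let-7d-5p: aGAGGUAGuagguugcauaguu
mmu-let-7g-5p: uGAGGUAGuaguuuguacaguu
mmu-miR-98-5p: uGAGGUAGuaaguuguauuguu

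The letters CTACCTC, the reverse complement of that seed written as DNA, were searched in the longest annotated 3′ UTR of each gene (GENCODE M21, GRCm38), on the strand of the transcript alone. Of 21024 genes, 1896 held them, which is 9.02%. Of the 7 genes, Lin28b held them, 4 times in 4445 bases, and the other 6 did not hold these letters in that window. Its 4 matches on chromosome 10 (minus strand) are given from the start of the UTR, with the letters that pair with the seed in capitals. The first is also followed by an A, as in the strongest kind of seed match.
Lin28b, chr10:45381022-45381044: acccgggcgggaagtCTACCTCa
Lin28b, chr10:45378648-45378670: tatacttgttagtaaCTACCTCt
Lin28b, chr10:45378476-45378498: gtttacagcacatggCTACCTCc
Lin28b, chr10:45377060-45377082: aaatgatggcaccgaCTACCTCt

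Lin28a held the letters at 2 places on chromosome 4 (minus strand), both followed by an A.
Lin28a, chr4:134005189-134005211: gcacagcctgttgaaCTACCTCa
Lin28a, chr4:134004551-134004573: gagatcgccacaaacCTACCTCa

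A match is a description of the sequence, not a measured site. let-7 itself was not measured here, since the libraries hold polyadenylated RNA. Genes with a match were called at shares close to those of genes without one. In TPS lines 14.8% of the 1536 tested genes with at least 1 match were higher and 9.11% were lower, and their log2 fold changes had a median of 0.04. Of 13200 tested genes without a match, 15.1% were higher and 7.95% lower, with a median of 0.02. Lin28b was among the 12 tested genes with 4 or more matches, of which 2 were higher and 2 lower.

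Known let-7 targets were called in both directions. In TPS lines 2 of 12 such genes were higher and 3 were lower, where 14.4% and 7.34% of all genes were, their log2 fold changes had a median of -0.13, and 8 of the 12 hold the letters above. Hmga2, a chromatin protein with 4 matches, was at 76.6 to 90.1 CPM in TPS lines and 16.8 to 34.6 CPM in EPS lines, with a log2 fold change of 1.76 (SE 0.26) and an adjusted p of 0.00569 in edgeR. Igf2bp3, an RNA-binding protein with 1 match, was at 43.1 to 58.2 CPM against 95.3 to 112 CPM, with a log2 fold change of -1.03 (SE 0.16) and an adjusted p of 0.00577. Hmga2 and Igf2bp3 were thus called on opposite sides, and both calls held in each of the 17 alternative fits. Myc was higher, with a log2 fold change of 1.91 and an adjusted p of 0.0220, and its relative Mycn was lower, with -0.86 and 0.0442. Both had 0 matches in the UTR searched. Nras, with 1 match, fell by 0.54 on the log2 scale (adjusted p of 0.0409). Nras and Mycn were each called in 1 of the 6 fits with a line left out. The number of targets called lower was 1 with upper quartile factors, with no composition factors and without TPS line 1 or 2 or EPS line 1 or 3, and 5 with the 12 libraries as separate samples. The number called higher was 1 without EPS line 1 or 2 and 4 with the 12 libraries, and Myc was called in 4 of the 6 fits with a line left out. The part of the fibroblast RNA, which was also higher in every TPS line, in the values of these targets was not tested.

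The 3 genes that passed the test were followed through other ways of fitting. In 17 alternatives, 6 of which leave out a line, none of the 3 changed its sign. Pou3f1 was called in 10 of the 11 alternatives that keep all lines, Lin28b in 7 of 11, and Fgf5 in 4 of the 7 in which it was tested. Each of the 3 was called in 1 of the 6 fits with a line left out, Pou3f1 without TPS line 1, Fgf5 without TPS line 2 and Lin28b without EPS line 1.

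**Figure D4:**
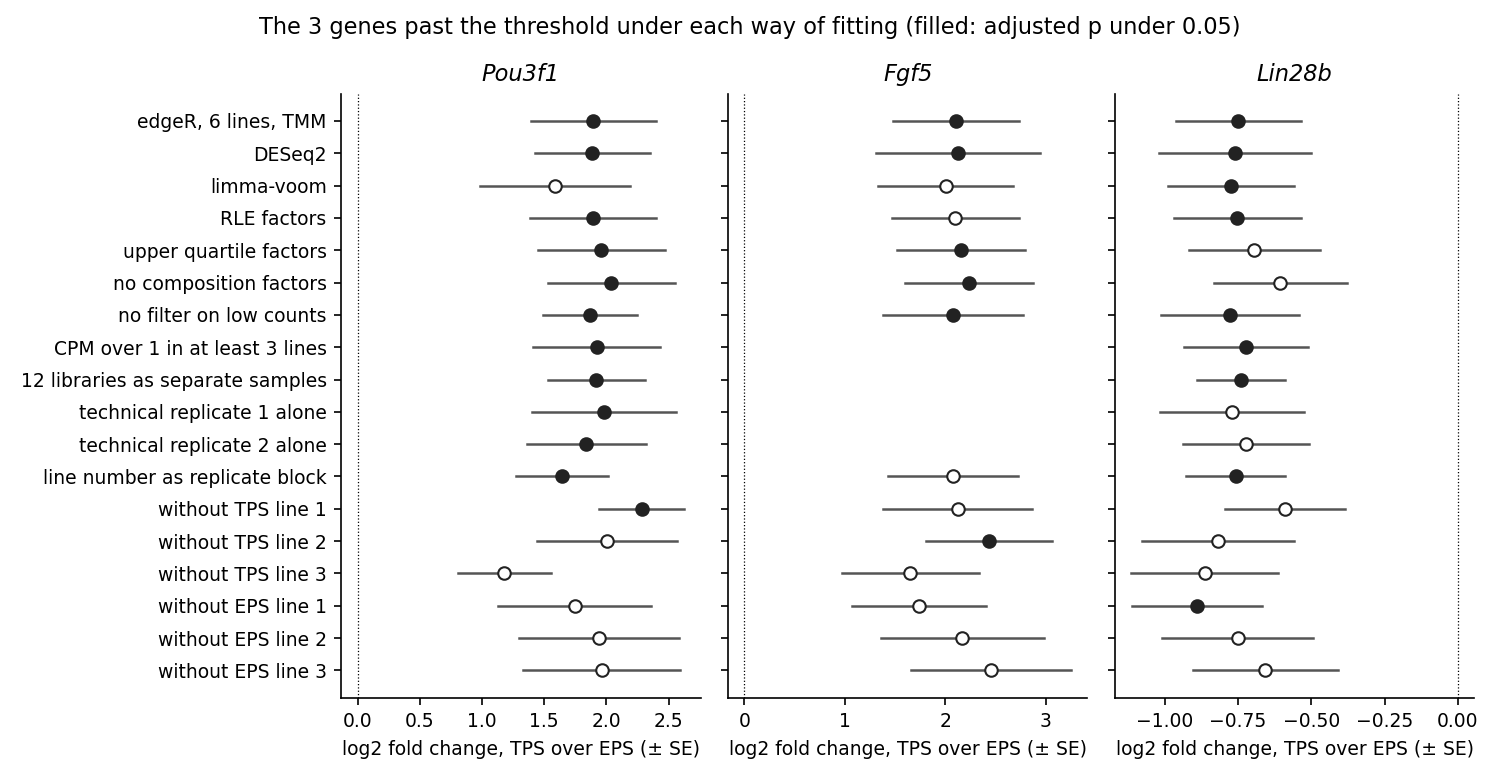
Log2 fold change of TPS over EPS lines with its SE for Pou3f1, Fgf5 and Lin28b under each way of fitting, with the reported fit at the top and the fits that leave out a line at the bottom. Filled points have an adjusted p under 0.05 and a missing point means that the gene was not tested. All points of a gene lie on 1 side of 0, and most of the fits with a line left out are open.

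Other genes of the formative and primed epiblast changed in both directions. In TPS lines 4 of 15 such genes were higher and 2 were lower, where 14.4% and 7.34% of all genes were, and their log2 fold changes had a median of 0.30. Sox3, a SoxB1 factor of the epiblast and neural plate, was at 11.2 to 19.0 CPM in TPS lines and 3.27 to 3.82 CPM in EPS lines, with a log2 fold change of 2.14 (SE 0.27) and an adjusted p of 0.00343 in edgeR. The DNA methyltransferase gene Dnmt3a was at 217 to 513 CPM against 62.0 to 93.5 CPM, with a log2 fold change of 2.09 (SE 0.35) and an adjusted p of 0.00785. Fgf8, a ligand of the gastrulating embryo, was at 1.62 to 10.8 CPM against 0.326 to 0.618 CPM, with a log2 fold change of 3.82 (SE 0.71) and an adjusted p of 0.0109. These 3 calls held in each alternative fit, unlike those of Pou3f1 and Fgf5.

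The remaining calls in that list were 1 higher and 2 lower. Cdh2, which encodes N-cadherin, had a log2 fold change of 1.21 with an adjusted p of 0.0460. Dnmt3l, the partner of the de novo methyltransferases, fell by 0.88 on the log2 scale (adjusted p of 0.0246), and Foxd3, a forkhead factor of epiblast and neural crest, fell by 1.77 (adjusted p of 0.0273). Dnmt3b, the methyltransferase most used as a formative marker, had a log2 fold change of 0.22 with an adjusted p of 0.572. With a line left out, Cdh2 was called in 1 of 6 fits, Foxd3 in 2 and Dnmt3l in 3, and the number of listed genes called lower was 0 without TPS line 1 or EPS line 1. Dnmt3l also lost its call with the line number as a block (adjusted p of 0.0706, edgeR). The de novo methylation genes Dnmt3a, Dnmt3b and Dnmt3l thus had 1 higher, 1 not called and 1 lower. The fibroblast sum was higher in every TPS line, and its part in the values of this list was not tested.

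Genes of naive pluripotency were lower or not called. In TPS lines 0 of 15 naive genes were higher and 8 were lower, where 14.4% and 7.34% of all genes were. Their log2 fold changes had a median of -0.76. The Krüppel-like factor gene Klf4 was at 90.7 to 122 CPM in TPS lines and 468 to 831 CPM in EPS lines, with a log2 fold change of -2.66 (SE 0.25) and an adjusted p of 0.00149 in edgeR. Tfcp2l1 fell by 1.82, Esrrb by 1.36 and Klf5 by 0.98 on the log2 scale (adjusted p of 0.00239, 0.00219 and 0.00438). These encode transcription factors that hold cells in the naive state. In the alternatives that keep all lines 6 to 9 naive genes were called lower, and without 1 line 6 to 8 were. The part of fibroblast RNA in these values was not tested.

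**Figure D5:**
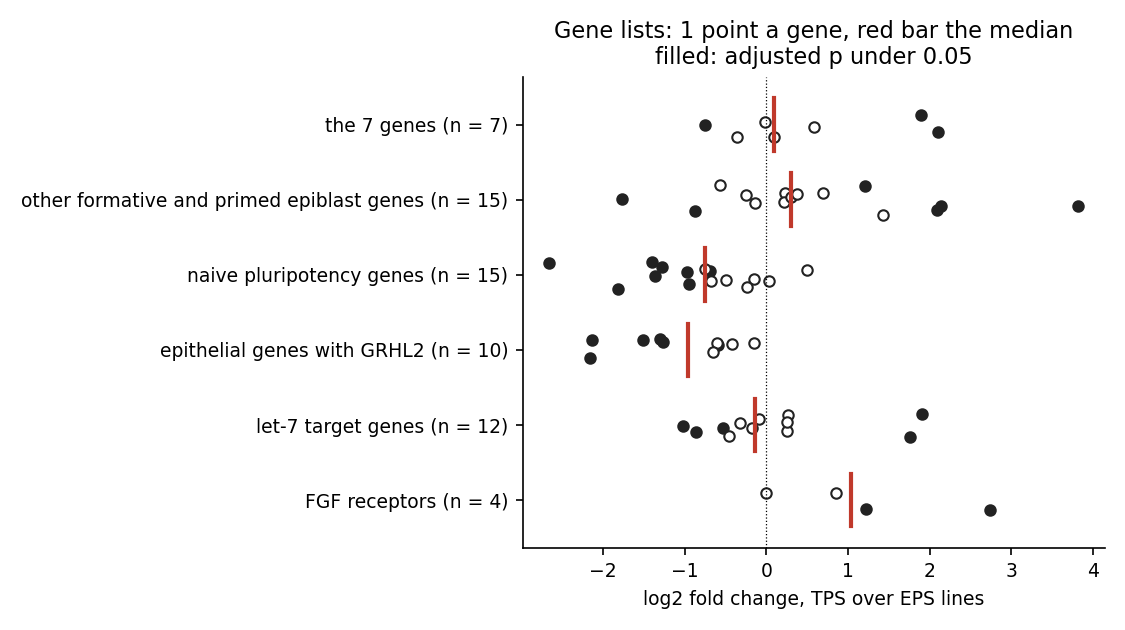
Log2 fold change of TPS over EPS lines (horizontal axis, edgeR) for every tested gene of each list, with 1 point a gene, filled where the adjusted p is under 0.05, and a red bar at the median. Vertical scatter within a list has no meaning. The 7 genes and the other formative and primed genes lie on both sides of 0 with medians of 0.09 and 0.30, while the naive and epithelial lists have medians of -0.76 and -0.96.

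Genes with the most similar profiles were listed for the 3 called genes. Likeness was the root mean square difference between log2(CPM + 1) values over the 6 lines, after each gene was centred on its mean. For Pou3f1 these were the semaphorin gene Sema6a (difference of 0.198), Fam43b (0.234) and the trophectoderm and posterior patterning factor gene Cdx2 (0.242). All 3 were lowest of the TPS lines in line 1 and highest in line 3, as Pou3f1 was. The choice by likeness favours this order, so it is no separate result. Cdx2 had 0.675, 3.65 and 9.37 CPM in TPS lines 1, 2 and 3. For Lin28b the nearest were Zbed3 (0.0702), the coatomer gene Arcn1 (0.0763) and Spg11 (0.0839). For Fgf5 they were Fign (0.0503), 1700048O20Rik (0.0547) and Gm12473 (0.0609), of which Fign was at 1.83 to 4.16 CPM over the 6 lines, and the other two were below 1 CPM in each line, as Fgf5 was in all but TPS line 3. Below 1 CPM the added 1 shrinks differences, so this likeness says little about fold change. Beside 2.11 for Fgf5, log2 fold changes were 0.72 for Fign, 2.92 for 1700048O20Rik and 2.02 for Gm12473. Their adjusted p were 0.147, 0.0451 and 0.0696 (edgeR).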

How the data were processed

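Libraries were made from polyadenylated RNA and read from both ends. Per the submitters' processing notes, fastp 0.19.7, STAR 2.7.3a and build mm10 (GRCm38) were used. The authors deposited raw counts per gene for each of 12 libraries. The counting tool, its annotation, strand setting and treatment of reads with several matches are not given in the sources used here, so overlapping and antisense genes could share reads. None of the 7 genes had a near-identical gene (blastn 2.17.0).

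Gene identifiers, without their version, were matched to GENCODE M21 (55141 of 55401). Technical replicates, which differed beyond sampling noise (chi-square per degree of freedom of 2.68 to 24.3), were added up within each line. The 3 TPS and 3 EPS lines, grouped by the labels, were compared with edgeR 4.0.16 in R 4.3.3 (quasi-likelihood test, TMM factors, filterByExpr with a minimum of 10 counts, Benjamini-Hochberg threshold 0.05). The standard error was the log2 fold change over the square root of F. CPM, scaled to a fixed total per line, used the library total times its TMM factor. The procedure was tested on simulated data, and the outcome is not given here. DESeq2 1.42.0, limma-voom (limma 3.58.1), other factors, filters, replicate units and left-out lines were alternatives. The fit on the 12 libraries counts technical replicates as independent, so its p-values do not measure the spread between lines.

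The 7 genes and all lists were chosen with earlier results of these data known. Named genes were the 7, their relatives, up to 4 called genes with the smallest adjusted p in each direction of each list, and the 3 most similar profiles of each called gene. Dnmt3b, Cdh1, Epcam, Rab25, Sox1, Sox2, Sall4, Nes, Pax6, Map2, Krt8, Krt18, Fgfr3 and Fgfr4 were chosen after their values were seen. No permutation test of 3 lines against 3 can give a p under 0.1. The values of 1 relative are not reported here. Intervals on counts cover counting error only.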

Additional observations from a re-analysis of the deposited data

How the results depend on the processing

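Of the 7 genes, 2 were called higher in TPS lines in the reported fit, and this number was 0 in limma-voom and 1 with RLE factors, with a filter of CPM over 1, with the 12 libraries as separate samples, with technical replicate 1 or 2 alone and with the line number as a replicate block. It was 0 to 1 when a line was left out. The number called lower, 1 in the reported fit, was 0 with upper quartile factors, with no composition factors and with technical replicate 1 or 2 alone, and 0 to 1 when a line was left out. Fgf5 was not tested under the filter of CPM over 1, with 12 libraries or with single technical replicates, since too few counts remain. The labels do not say whether the line numbers pair the samples. Lines of the same number deviated with correlations of -0.116 to 0.0423, and lines of different numbers with -0.244 to 0.231. With the replicate block Fgf5 had an adjusted p of 0.0866 in edgeR, all genes called fell from 2509 to 1714 higher and from 1282 to 721 lower, and the call of Pou3f1 and of Lin28b held. The sign of uncalled genes turned for Zic2, with log2 fold changes of 0.039 with upper quartile factors, 0.12 with no composition factors, 0.0088 with the filter of CPM over 1, 0.023 with the block, and -0.33 to 0.32 when a line was left out (above 0 without TPS line 1 or 2 or EPS line 2). It also turned for Zic5, with -0.13 to 0.37 when a line was left out (below 0 without TPS line 1 or 3 or EPS line 1), for Otx1, with -0.24 to 0.78 (below 0 without TPS line 2), and for Grhl3, with -0.64 to 0.015 (above 0 without TPS line 3). Leaving out the composition factors moved the median of all genes to 0.14 on the log2 scale and the share of calls that were higher from 66.2% to 80.0%. Over all genes DESeq2 called 3415 higher and 1637 lower, and the 12 libraries taken separately gave 4067 and 3610. With a line left out, 1617 to 2234 of all genes were called higher and 493 to 1047 lower, with the smallest counts without TPS line 3. With the replicate block 3 fibroblast markers were called higher and 1 let-7 target lower. The cause of these shifts was not tested.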
